A study of Homo sapiens with 16 samples.

Results

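The genes described here build the B-cell receptor and carry its first signals. They are CD79A and CD79B, the receptor's signalling chains, the surface proteins MS4A1 (CD20) and CD22, the kinases LYN, BLK, SYK and BTK, and the adaptor BLNK. These 9 genes were taken from a list of 19974 protein-coding genes, and every peak of 3 histone marks over each gene and 10 kb on either side of it was collected. H3K4me3 is a histone mark of promoters, H3K27ac sits at promoters and enhancers in use, and H3K4me1 is found mainly at enhancers and beside promoters. The marks had been mapped by chromatin immunoprecipitation and sequencing in Toledo cells, an established line of diffuse large B-cell lymphoma. The CARM1i group grew for 6 days in 5 uM TP-064, which inhibits CARM1, a methyltransferase that acts on arginines, and the DMSO group for 6 days in the solvent DMSO. Each mark had 2 CARM1i and 2 DMSO libraries, which gives 12 libraries, and 4 input libraries of the series were not used here. All libraries come from 1 cell line, and its chromatin is a bulk sample, so fewer cells with a mark and less of the mark per cell cannot be told apart. By its title, the study is about CARM1 inhibition and acetyltransferase activity where CREBBP or EP300 is mutated.

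The B-cell receptor is a membrane immunoglobulin held together with a pair of chains, CD79A (Ig alpha) and CD79B (Ig beta), whose tails carry the tyrosines that pass the signal into the cell. Src family kinases, LYN and BLK among them, phosphorylate these tyrosines, SYK binds to them and becomes active, and SYK in turn phosphorylates BLNK, the scaffold on which BTK and the phospholipase PLCG2 meet. CD22 is a lectin that dampens the signal: LYN phosphorylates its tail, which then recruits the phosphatase PTPN6 (SHP-1). MS4A1 is a tetra-spanning membrane protein found on B cells and the target of therapeutic CD20 antibodies, and BTK and SYK are drug targets in B-cell malignancies.

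Promoter sequences show how different these genes are at the sites where H3K4me3 was counted. RefSeq windows of 300 bases (250 before and 50 after an annotated start) on GRCh38.p14 were found for 5 of the 9 members, in 8 windows, and the 5 windows on which the results turn are printed 5′ to 3′ on the gene's own strand. Capitals mark CpG dinucleotides. CD22 is shown because its H3K4me3 peak was absent from both CARM1i libraries, CD79A because its peak was shorter in 1 CARM1i library and absent from the other, BLNK because its peak was wider there, SYK as a CpG-rich promoter that kept its peak, and BTK for its inner start, which is poor in CpG.
CD22, chr19:35328937-35329236, plus strand: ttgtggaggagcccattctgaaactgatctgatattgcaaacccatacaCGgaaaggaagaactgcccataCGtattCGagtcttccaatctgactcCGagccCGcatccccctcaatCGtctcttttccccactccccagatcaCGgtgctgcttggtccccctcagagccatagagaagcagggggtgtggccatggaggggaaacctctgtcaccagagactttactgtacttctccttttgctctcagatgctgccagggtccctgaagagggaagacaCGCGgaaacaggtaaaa
CD79A, chr19:41877029-41877328, plus strand: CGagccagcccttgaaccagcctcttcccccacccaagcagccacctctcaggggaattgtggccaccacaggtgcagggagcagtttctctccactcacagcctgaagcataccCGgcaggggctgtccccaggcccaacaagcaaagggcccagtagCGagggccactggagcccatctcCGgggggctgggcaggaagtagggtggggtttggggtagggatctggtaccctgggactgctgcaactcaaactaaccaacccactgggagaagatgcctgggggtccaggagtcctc
BLNK, chr10:96271520-96271819, minus strand: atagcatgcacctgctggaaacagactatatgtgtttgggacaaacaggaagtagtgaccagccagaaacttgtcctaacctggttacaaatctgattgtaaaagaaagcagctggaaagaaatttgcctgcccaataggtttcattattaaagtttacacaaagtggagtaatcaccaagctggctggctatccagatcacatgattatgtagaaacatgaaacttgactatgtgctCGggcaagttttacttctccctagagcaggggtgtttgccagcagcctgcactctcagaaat
SYK, chr9:90801569-90801868, plus strand: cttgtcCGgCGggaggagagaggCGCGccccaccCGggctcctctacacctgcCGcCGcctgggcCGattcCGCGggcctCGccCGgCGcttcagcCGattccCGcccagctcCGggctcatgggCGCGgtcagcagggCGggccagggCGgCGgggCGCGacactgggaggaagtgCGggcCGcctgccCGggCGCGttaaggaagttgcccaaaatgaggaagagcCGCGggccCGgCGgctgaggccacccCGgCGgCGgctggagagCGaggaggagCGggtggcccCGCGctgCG
BTK inner start, chrX:101386142-101386441, minus strand: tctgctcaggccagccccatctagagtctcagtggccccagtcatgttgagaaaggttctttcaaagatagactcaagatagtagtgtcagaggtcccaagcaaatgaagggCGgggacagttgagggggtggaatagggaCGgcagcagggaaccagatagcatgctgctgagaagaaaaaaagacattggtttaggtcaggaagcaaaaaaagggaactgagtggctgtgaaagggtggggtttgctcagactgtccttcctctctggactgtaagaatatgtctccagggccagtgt
The CD22 window held 9 CpG, the CD79A window 4, the BLNK window 1, the SYK window 40 and the inner BTK window 2. Their GC content was 53.0% for CD22, 63.0% for CD79A, 42.7% for BLNK, 76.7% for SYK and 50.3% for BTK. The motif AGGAAG, the core bound by ETS factors, was found on either strand in 7 of the members' 8 windows, with 1 match each in CD22, CD79A and BLNK, and 33.5% of all 22132 RefSeq windows hold it. The octamer ATGCAAAT, known from immunoglobulin promoters, had no match in the 8 windows, and 1.65% of all windows hold it. An E-box was found in every window except that of the other BTK start, and 65.1% of all windows hold one. A GC box was found only in the printed SYK window and the BTK windows, while 56.3% of all windows hold one. An EBF1 motif and a TATA box had no match in the 8 windows, and 1.38% and 9.46% of all windows hold them. The 8 windows are not independent, since SYK gave 3, some overlapping, and BTK 2. No motif share was tested against all windows. Each motif was searched on both strands and counted whether or not it overlapped another.

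The libraries differed before any gene was considered. The H3K4me1 lists held 4094 and 4242 peaks in CARM1i cells, against 25058 and 9673 in DMSO cells, and the H3K27ac lists 4771 and 4595 against 7885 and 4016. H3K4me3 lists were closer, with 10317 and 10048 peaks against 12476 and 11481. DMSO replicate 1 stands apart in H3K27ac and H3K4me1, so results are also given without it. Lane 4 held all CARM1i libraries and lane 3 all DMSO libraries, and an effect of lane cannot be told apart from one of treatment. The lists carry no reads, so depth is unknown and a site without a peak may have fallen short of the peak caller's cut-off. Of the B-cell markers, PAX5, EBF1, VPREB3 and POU2AF1 had H3K27ac and H3K4me3 in all 4 libraries of each mark, while H3K4me1 was found at 2 and 2 of the 5 listed genes in CARM1i cells, against 5 and 5 in DMSO cells. Among markers of other cell types, CD3D, MPO, S100A8, EPCAM and KRT8 had no peak of any mark. H3K4me3 was in all 4 libraries at 2 of 6 T and NK cell genes, 3 of 6 myeloid genes and 1 of 5 epithelial and stromal genes, and H3K4me1 at 1 of these 5. H3K27ac was in all 4 libraries at none of the 3 lists' genes, with 2996 and 1615 bp over the T and NK list in CARM1i cells, against 1438 and 0 bp in DMSO cells, and 0 and 0 bp over the myeloid list in CARM1i cells, against 2531 and 1718 bp in DMSO cells.

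The first question was whether these genes kept each mark and over what length. In H3K4me3, 8 of the 9 members had a peak in all 4 libraries, a state found in 56.6% of all genes, and CD22 alone had lost it. A mark counts as lost where both DMSO libraries and neither CARM1i library have a peak in the window, and 4.79% of the 12312 genes with H3K4me3 in both DMSO libraries met that rule. In H3K27ac, 6 of 9 members had a peak in all 4 libraries, against 9.44% of all genes, and 0 of the 6 members marked in both DMSO libraries lost it, beside a background of 24.1%. In H3K4me1, 3 of 9 members had a peak in all 4 libraries, against 8.84% of all genes, and 2 of 8 members, BTK and BLNK, lost it, beside a background of 39.8%. Every member had each mark in at least 1 DMSO library, so none could count as having gained one.

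Covered length, the number of bp under peaks in a gene's window, was compared next. In H3K4me3 it was lower in both CARM1i libraries than in both DMSO libraries at 8 of 9 members, a share close to the 82.8% of all genes covered in any library. BLNK was the 1 member that was higher in both CARM1i libraries, and 0.563% of genes, 72 of 12794, were. In H3K4me1 the length was lower in both CARM1i libraries at 8 of 9 members, beside 42.4% of genes covered in any library and 83.7% of those covered in all 4, and higher at 0 of 9, beside 0.133%. In H3K27ac it was lower at 2 of 9, CD79B and BLNK, beside 25.4%, and higher at 0 of 9, beside 5.44%. An exact two-sided permutation test over 2 against 2 libraries cannot give a p below 0.333, so the length was also tested across all genes with limma, on log2 length in genes covered in all 4 libraries, with Benjamini-Hochberg adjustment and a threshold of 0.05. In H3K4me3, limma called CD79A and SYK lower, 2 of 8 members tested beside 17.4% of genes, and none higher, beside 0.0795%. In H3K4me1 it called CD79A and BLK lower, 2 of 3 beside 39.5%. This fit took each gene's H3K4me1 spread almost wholly from all genes. Its small p-values therefore say little about the replicate spread of a single gene. In H3K27ac limma called 0 of 6 members and 0 of 1886 genes, although 157 genes had an unadjusted p under the threshold, none of them a member. The lengths were also centred, each library on its own median length over the genes tested, a scale on which the median log2 ratio of all genes was 0.05 in H3K4me3, 0.18 in H3K4me1 and 0.02 in H3K27ac. After this centring limma called BLNK higher in H3K4me3, 1 of 8 beside 0.521%, and 0 of 8 lower, beside 5.3%. On that scale it called 0 of 3 members in H3K4me1, beside 2.04% of genes lower and 0.736% higher, and 0 of 6 in H3K27ac, beside 2.07% lower and 2.6% higher. The median log2 ratio of CARM1i over DMSO was -0.40 over the members and -0.29 over all genes in H3K4me3, -1.46 and -1.38 in H3K4me1, and -0.27 and -0.21 in H3K27ac.

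Without DMSO replicate 1, the lost and lower counts over the members were as before, while shares over all genes moved. In H3K4me3, 1 of 9 was lost, beside 4.91% of genes, and 8 of 9 were lower, beside 86.8%. In H3K4me1, 2 of 8 were lost, beside 40.2%, and 8 of 8 were lower, beside 81.6% in place of 42.4%. In H3K27ac, 0 of 6 were lost, beside 27.2%, and 2 of 7 were lower, beside 39.7% in place of 25.4%. In H3K27ac both CARM1i libraries were then above DMSO replicate 2 at 4 of the 7 members covered, MS4A1, BLK, SYK and BTK, beside 26.5% of genes. Without DMSO replicate 2, 9 of 9 members were lower in H3K27ac, beside 81.9% of genes, and 2 of 9, CD22 and LYN, counted as lost, beside 44.7%. The H3K4me1 count of lost members was 4 of 8 without CARM1i replicate 2, with MS4A1 and SYK added, beside 52.4% of genes. In H3K4me1 limma called 0 members without CARM1i replicate 1, CARM1i replicate 2 or DMSO replicate 1, where the calls over all genes were 4, 4 and 0 in place of 698 and the log2 ratio of BLK was -2.14, -3.38 and -2.16. In H3K4me3 the calls of CD79A and SYK did not hold without CARM1i replicate 2, DMSO replicate 1 or DMSO replicate 2. Without CARM1i replicate 1 more members were called lower, and so were more of all genes. The log2 ratio of CD79A was -1.13 and -0.52 without CARM1i replicate 1 and 2. It was -0.84 and -0.81 without DMSO replicate 1 and 2.

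**Figure D1:**
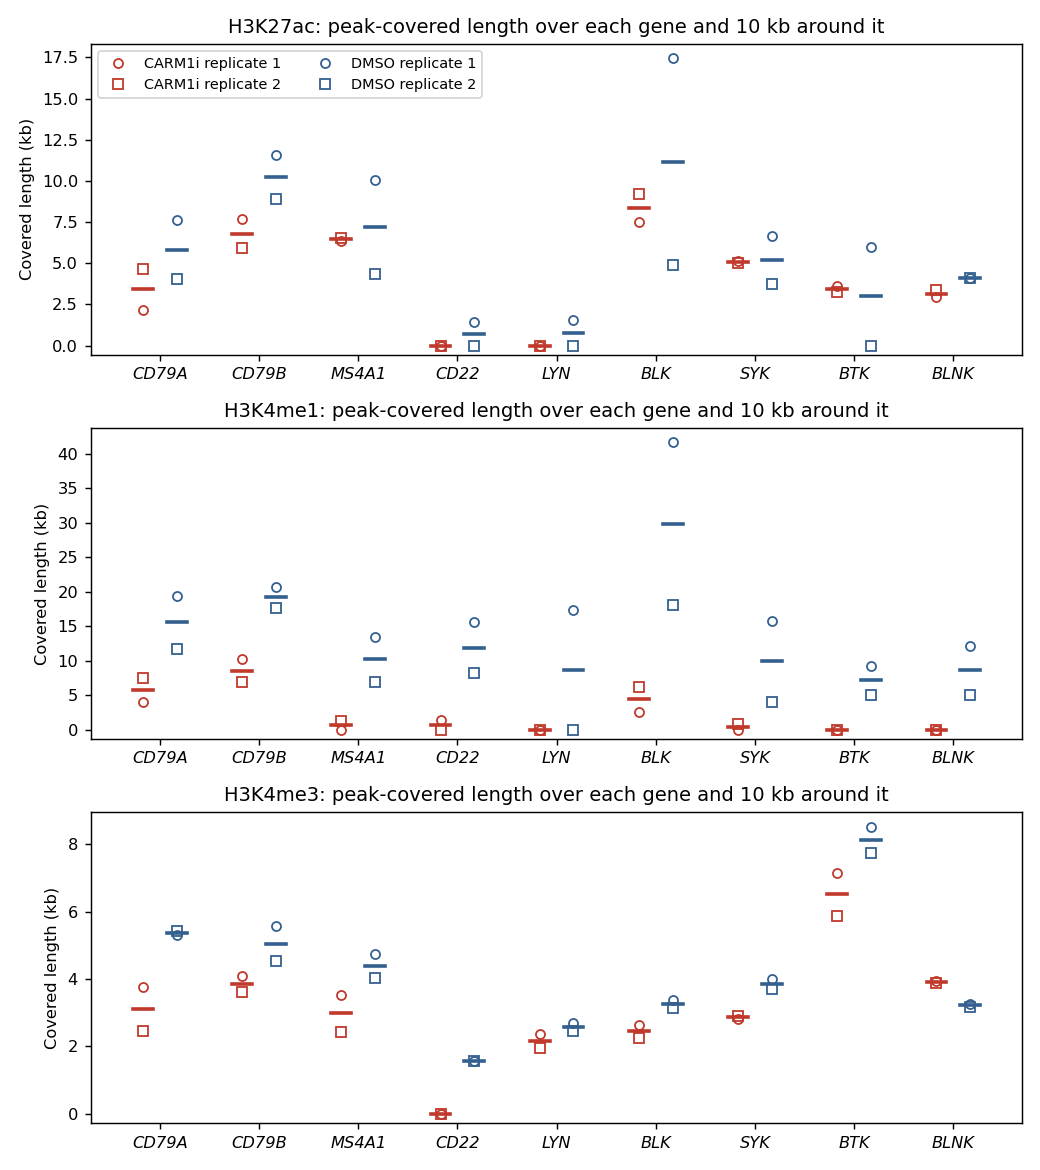
Covered length in kb over each of the 9 genes and 10 kb around it (y axis) for the 2 CARM1i libraries (red) and the 2 DMSO libraries (blue), 1 panel for each mark; circles are replicate 1, squares replicate 2 and bars the group means. In the H3K4me3 panel CD22 lies at 0 in both CARM1i libraries and BLNK is the 1 gene whose CARM1i libraries lie above its DMSO libraries; in the H3K4me1 panel the CARM1i libraries lie at or near 0 for 6 of the genes.

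CD79A (chr19:41877279-41881372, hg38) is a gene of 4094 bp whose product is the Ig alpha chain. Its window had 3755 and 2451 bp of H3K4me3 in CARM1i cells, against 5302 and 5440 bp in DMSO cells. The groups did not overlap, and the log2 ratio was -0.82 ± 0.20 (SE, n = 2 each; limma adjusted p = 0.0429). After centring the log2 ratio was -0.48 ± 0.17 (limma adjusted p = 0.184). The adjusted p ran from 0.000737 to 0.184 over the alternatives that could be fitted, which leave out the gene alone, the 5′ end and peaks at no other gene. That difference lay at the gene's own promoter rather than evenly over the window. The H3K4me3 site over the promoter printed above covered 1215 and 0 bp in CARM1i cells, against 2590 and 2462 bp in DMSO cells. A second site, beyond the gene's end and near ARHGEF1, covered 2540 and 2451 bp against 2712 and 2978 bp.

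H3K27ac at the CD79A promoter overlapped between the groups, with 2172 and 3011 bp in CARM1i cells and 3263 and 1813 bp in DMSO cells. A smaller H3K27ac site 5′ of the gene, near the ribosomal protein gene RPS19, had no peak in either CARM1i library and 1383 and 1460 bp in the DMSO libraries, and it was the 1 lost H3K27ac site of the 10 member sites with the mark in both DMSO libraries, beside a background of 24.5% of sites. H3K4me1 over the CD79A window covered 4032 and 7511 bp in CARM1i cells, against 19423 and 11744 bp in DMSO cells. The log2 ratio was -1.46 ± 0.58 (limma adjusted p = 0.0358), close to the -1.38 of the median gene, and after centring it was 0.10 ± 0.41 (adjusted p = 0.892). The adjusted p ran from 0.00453 to 0.892 over the alternatives that could be fitted, which leave out the gene alone, the 2 kb flank, the 5′ end and peaks at no other gene. Much of the H3K4me1 length of the window lay in sites within 2 kb of RPS19 or ARHGEF1. With peaks at no other gene, the difference of CARM1i minus DMSO was -2919 bp in place of -9812 bp.

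CD79B (chr17:63928740-63932331) encodes the Ig beta chain, and its mutations are known from diffuse large B-cell lymphoma. The merged H3K27ac peaks of the 4 libraries formed 1 broad site that reached past both ends of the gene. It was a single peak in DMSO replicate 1 alone, and separate peaks in the other libraries. The site covered 7658 and 5924 bp in CARM1i cells, against 11601 and 8887 bp in DMSO cells. Both CARM1i libraries were below both DMSO libraries, but the log2 ratio of -0.59 ± 0.41 did not pass the test (limma adjusted p = 0.744). H3K4me3 covered 4098 and 3613 bp against 5573 and 4533 bp, with a log2 ratio of -0.39 ± 0.14 (limma adjusted p = 0.0846), which is close to the median of all genes. H3K4me1 covered 10177 and 6945 bp against 20676 and 17665 bp. Its log2 ratio of -1.18 ± 0.52 did not pass the test (limma adjusted p = 0.0537). The H3K4me1 sites over the gene itself stayed in all 4 libraries, while the outer sites, near GH1 on the lower-coordinate side and near SCN4A on the other, had no peak in CARM1i cells, against 3137 and 2530 bp at the GH1 side and 4279 and 2290 bp at the SCN4A side in DMSO cells.

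**Figure D2:**
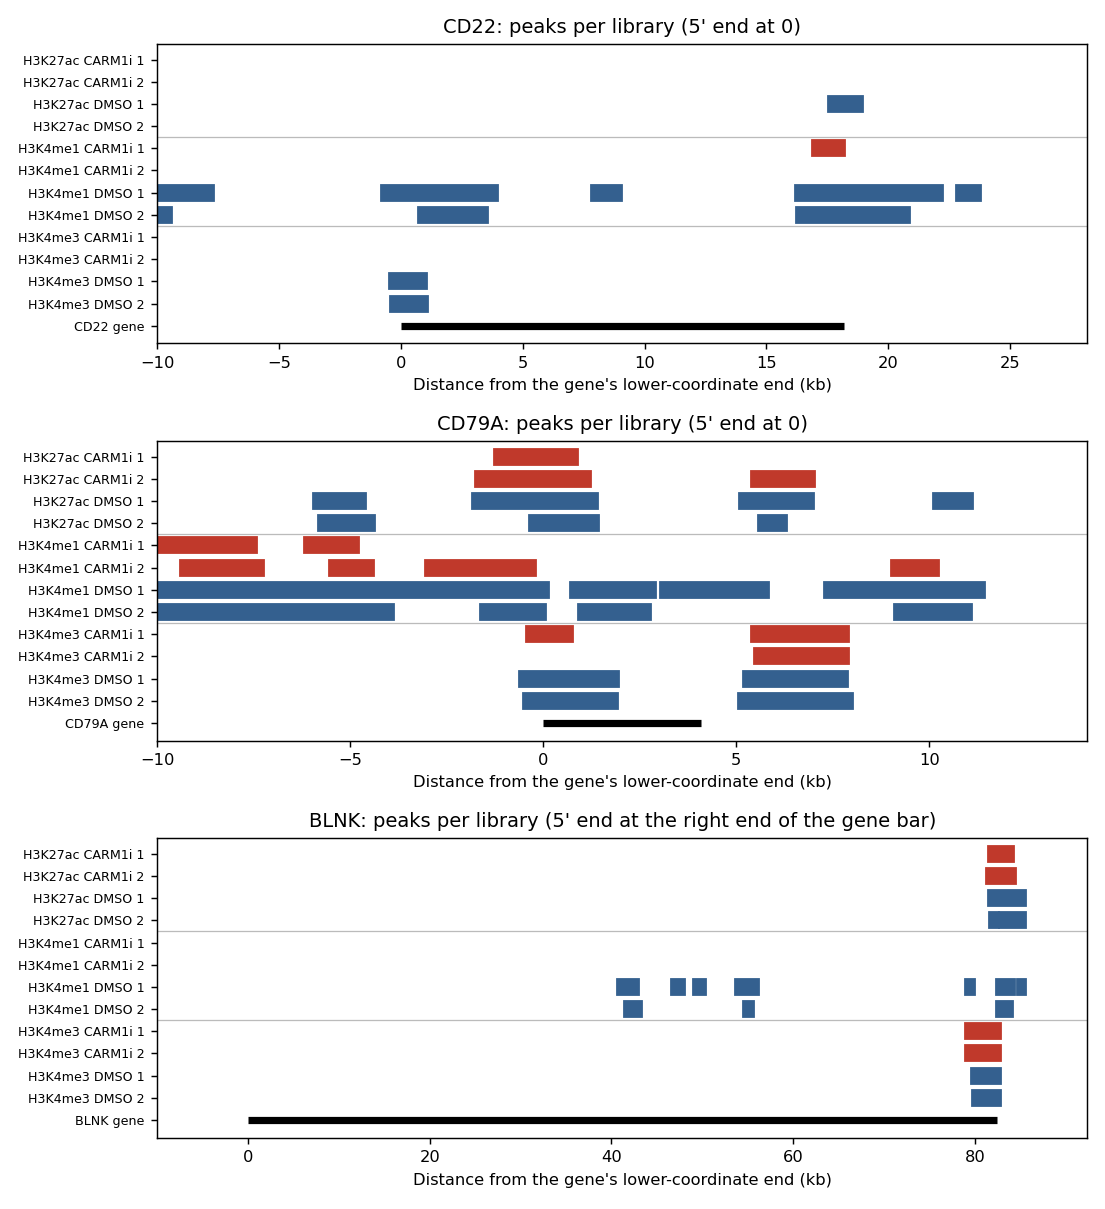
Peaks in each of the 12 libraries over CD22, CD79A and BLNK, drawn as bars against the distance in kb from the gene's lower-coordinate end (x axis), with CARM1i in red, DMSO in blue and the gene in black. The CD22 promoter has no H3K4me3 bar in the CARM1i rows and 1 in each DMSO row, the CD79A promoter bar is short in CARM1i 1 and missing in CARM1i 2, and the H3K4me3 bars of BLNK reach further into the gene in the CARM1i rows.

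MS4A1 (chr11:60455847-60470752) encodes CD20. Over its lower-coordinate end H3K27ac covered 3964 and 4354 bp in CARM1i cells and 5988 and 2930 bp in DMSO cells, and H3K4me3 covered 3527 and 2436 bp against 3399 and 2735 bp. In both marks the groups overlapped there. What separated the H3K4me3 totals of the MS4A1 window, 3527 and 2436 bp in CARM1i cells against 4753 and 4021 bp in DMSO cells, was a second site at -9936 to -8567 bp from that end, near MS4A5, with no peak in CARM1i cells and 1354 and 1286 bp in DMSO cells. It was 1 of the 2 lost H3K4me3 sites among the 13 with peaks in both DMSO libraries, beside a background of 10.9% of sites. A further H3K27ac site beyond the gene's upper-coordinate end was kept, with 2393 and 2206 bp against 2675 and 1427 bp. H3K4me1 covered 0 and 1288 bp in CARM1i cells, against 13498 and 6967 bp in DMSO cells, and the H3K4me1 peaks at that kept H3K27ac site were in the DMSO libraries only, with 3061 and 1519 bp.

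CD22 (chr19:35329187-35347361) encodes the inhibitory lectin, and it was the member that lost its promoter mark. H3K4me3 was absent from both CARM1i libraries and covered 1560 and 1557 bp in the DMSO libraries, the smallest H3K4me3 length of any member. The whole 300 bp window printed above lay under H3K4me3 in both DMSO libraries and outside it in both CARM1i libraries. The exact permutation p was 0.333, the smallest that 2 against 2 libraries can give. No H3K27ac peak covered that promoter in any library, and the 1 H3K27ac peak of the CD22 window, 1451 bp at its far end near FFAR1, was in DMSO replicate 1 alone. H3K4me1 covered 1375 and 0 bp in CARM1i cells, against 15567 and 8154 bp in DMSO cells, and its site at the 5′ end had 0 and 0 bp against 4812 and 2840 bp. Of the DMSO libraries, replicate 1 had H3K4me1 over the promoter window, while the peak of replicate 2 began 718 bp inside the gene. In lists cut to equal length CD22 did not count as lost, since only 1 of the shortened DMSO lists then held its peak.

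LYN (chr8:55879835-56014169), the kinase that both starts and restrains the receptor's signal, had a single H3K4me3 site at its lower-coordinate end. That site covered 2355 and 1964 bp in CARM1i cells, against 2690 and 2459 bp in DMSO cells, with a log2 ratio of -0.26 ± 0.13 (limma adjusted p = 0.147) that lay 0.04 above the median of all genes. H3K27ac and H3K4me1 were seen at LYN in DMSO replicate 1 alone, with 1572 bp of H3K27ac and 10 H3K4me1 sites that add up to 17324 bp. The other 3 libraries of each of those marks had no peak, so nothing at LYN in these marks separates the treatments.

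BLK (chr8:11494387-11564599), a Src family kinase made mainly in the B lineage, had the longest H3K4me1 coverage of the members in DMSO cells. It covered 2632 and 6236 bp in CARM1i cells, against 41596 and 18110 bp in DMSO cells, spread over 11 sites along the gene. The log2 ratio was -2.76 ± 0.55 (limma adjusted p = 3.11e-05), and 7.53% of the 1766 genes tested had a lower ratio. It lay at -1.38 from the median of all genes, and after centring it was -1.20 ± 0.45 (limma adjusted p = 0.121). The adjusted p ran from 6.09e-09 to 0.295 over the alternatives, of which the 5′ end could not be fitted. Of the BLK sites, 3 were lost and 1, far inside the gene, stayed in all 4 libraries with 1715 and 1644 bp against 3167 and 2694 bp. H3K27ac at BLK gave 7490 and 9189 bp in CARM1i cells, against 17444 and 4911 bp in DMSO cells, so the CARM1i values lay between those of the DMSO libraries. It persisted at the lower-coordinate end (4366 and 4406 bp against 7016 and 3290 bp) and at an inner site (2113 and 2830 bp against 3295 and 1621 bp). At that inner site H3K4me1 covered 917 and 0 bp in CARM1i cells, against 5503 and 2906 bp in DMSO cells. H3K4me3 covered 2646 and 2246 bp against 3366 and 3144 bp, with a log2 ratio of -0.42 ± 0.12 (limma adjusted p = 0.0612).

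SYK (chr9:90801600-90898549), the kinase that docks on the phosphorylated CD79 tails, kept both promoter marks. H3K4me3 covered 2812 and 2908 bp in CARM1i cells, against 4004 and 3708 bp in DMSO cells. The groups did not overlap, and SYK passed the test with a log2 ratio of -0.43 ± 0.10 (limma adjusted p = 0.0392), while 26.9% of the 11314 genes tested had a lower ratio. The ratio lay at -0.14 from the median of all genes, after centring it was -0.09 ± 0.09 (adjusted p = 0.548), and over all alternatives the adjusted p ran from 0.03 to 0.548. H3K27ac at SYK covered 5162 and 5029 bp against 6646 and 3715 bp, so the groups overlapped. H3K4me1 covered 0 and 802 bp in CARM1i cells, against 15810 and 4067 bp in DMSO cells. The 1 site with H3K4me1 in a CARM1i library spans the third RefSeq promoter of the gene, where it covered 0 and 802 bp against 6846 and 2380 bp, and where no library had H3K4me3.

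BTK (chrX:101349450-101390796), the Tec family kinase that activates PLCG2, lost H3K4me1 from its whole window, with no peak in CARM1i cells and 9270 and 5024 bp in DMSO cells. Its inner start, printed above, kept H3K4me3 in all 4 libraries, with 2853 and 2531 bp in CARM1i cells and 3175 and 2901 bp in DMSO cells. The whole BTK window had 7159 and 5879 bp of H3K4me3 against 8522 and 7735 bp, but the sites at its ends lie near TIMM8A and RPL36A, and the log2 ratio of -0.32 ± 0.14 did not pass the test (limma adjusted p = 0.109). It lay at -0.03 from the median of all genes. H3K27ac covered 3647 and 3282 bp in CARM1i cells, against 5995 and 0 bp in DMSO cells. At the inner start H3K27ac covered 1933 and 1953 bp against 1842 and 0 bp, and at a site further inside the gene 1714 and 1329 bp against 1247 and 0 bp. Both CARM1i libraries were above both DMSO libraries at these sites, but not over the whole window. The share of all sites with this order is not given. Over gene windows covered in any library it was 5.44% in H3K27ac. DMSO replicate 2, the shortest H3K27ac list, had no H3K27ac peak anywhere at BTK.

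**Figure D3:**
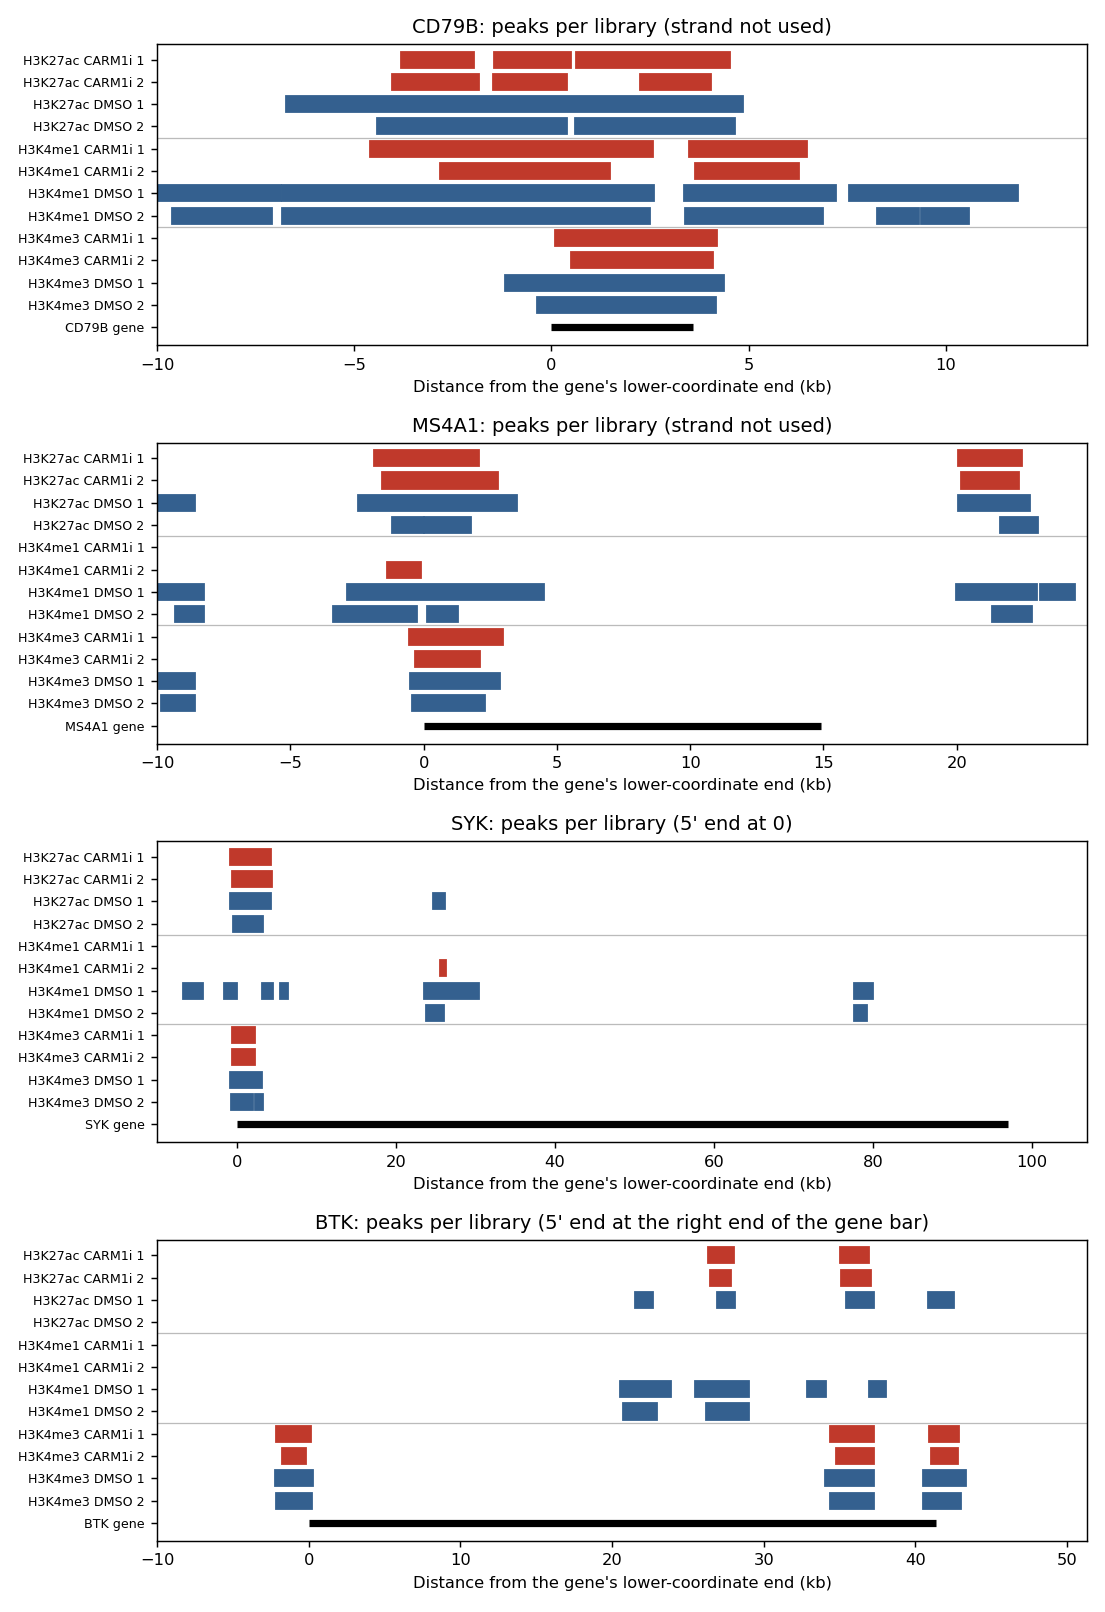
Peaks in each of the 12 libraries over CD79B, MS4A1, SYK and BTK, drawn as bars against the distance in kb from the gene's lower-coordinate end (x axis), with CARM1i in red, DMSO in blue and the gene in black. H3K27ac bars over CD79B, the MS4A1 start side and the SYK promoter appear in all 4 H3K27ac rows, while the H3K4me1 rows of BTK are empty in both CARM1i libraries.

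BLNK (chr10:96189171-96271569), the scaffold that SYK phosphorylates, was the member whose marks went in different directions. H3K4me3 covered 3934 and 3871 bp in CARM1i cells, against 3269 and 3162 bp in DMSO cells, so both CARM1i libraries were higher and the groups did not overlap. The log2 ratio was 0.28 ± 0.09 (SE, n = 2 each), short of the threshold (limma adjusted p = 0.0792), and only 31 of the 11314 genes tested, 0.274%, had a higher one. It lay 0.57 above the median of all genes, and after centring it was 0.62 ± 0.08 and passed the test (limma adjusted p = 0.0154). Over all alternatives the adjusted p ran from 0.0154 to 0.858, with the highest value from a window of 2 kb around the 5′ end.
The added length lay inside the gene. The peak's upstream edge was at -474 and -439 bp from the 5′ end in CARM1i cells, against -481 and -488 bp in DMSO cells, and its inner edge was at 3459 and 3431 bp into the gene, against 2787 and 2673 bp. H3K27ac at BLNK covered 2929 and 3362 bp in CARM1i cells, against 4131 and 4085 bp in DMSO cells, a log2 ratio of -0.39 ± 0.38 (limma adjusted p = 0.806). Here the upstream edge differed: it was at -1959 and -2182 bp in CARM1i cells, against -3235 and -3224 bp in DMSO cells. H3K4me1 had no peak at BLNK in CARM1i cells and covered 12131 and 5068 bp in DMSO cells. With the window cut to 2 kb around the gene, the H3K27ac difference of CARM1i minus DMSO turned to 176 bp.

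**Figure D4:**
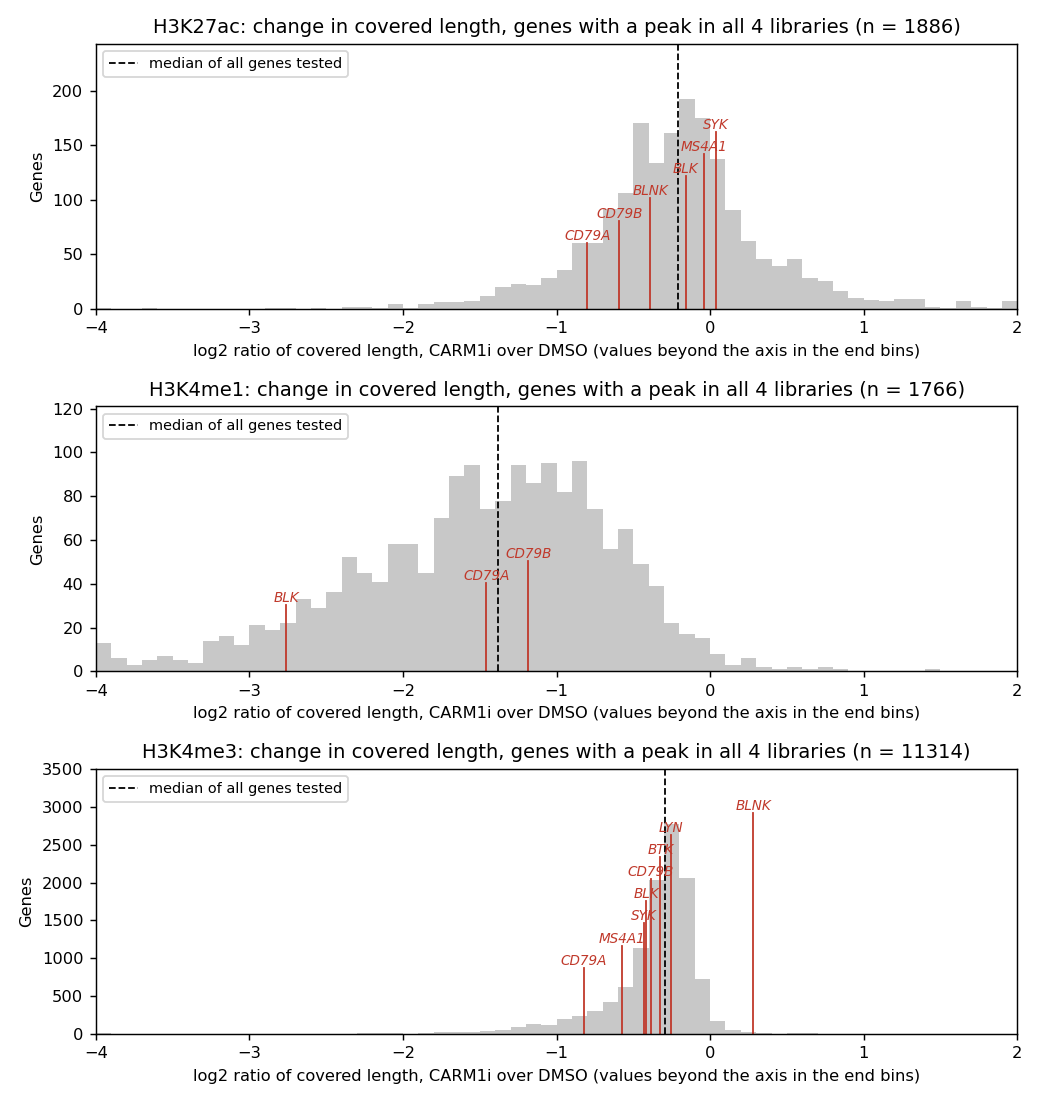
Histograms of the log2 ratio of covered length, CARM1i over DMSO (x axis), for all genes with a peak in all 4 libraries of a mark (y axis, number of genes), with the members that could be tested as red lines and the median of all genes as a dashed line. In H3K4me3 BLNK at 0.28 lies to the right of nearly all 11314 genes and CD79A at -0.82 lies in the left tail; in H3K4me1 BLK at -2.76 lies left of most of the 1766 genes.

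The members' H3K4me1 sites show how the mark and the libraries go together. Peaks of the 4 libraries were merged into sites, and the members held 55 H3K4me1 sites, of which 6 had a peak in CARM1i replicate 1 and 10 in CARM1i replicate 2, against 55 in DMSO replicate 1 and 26 in DMSO replicate 2. Both DMSO libraries had 26 of the sites in common, and 16 of these were lost, beside 54.4% of such sites genome-wide. The 4 sites kept in all 4 libraries were 2 at CD79B, 1 at CD79A and 1 at BLK. H3K27ac sites numbered 24, of which 8 were in all 4 libraries and 9 in DMSO replicate 1 alone. At CD79A, CD79B, MS4A1, BLK, SYK and BLNK a site over one end of the gene carried H3K27ac in all 4 libraries.

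Loss of H3K4me3 at promoters was then counted by CpG content, as a description. Of the 11472 RefSeq promoter windows under H3K4me3 in both DMSO libraries, 6.12% were free of it in both CARM1i libraries. Among windows with 5 to 9 CpG, the class of CD22, the share was 19.9%, 86 of 433 windows. Windows with 0 to 4 CpG, the class of CD79A, BLNK and the inner BTK start, rarely carried H3K4me3 in DMSO cells, 4.18% of 4018 windows, and 17.3% of those that did were lost. Windows with at least 20 CpG, the class of the SYK promoter, lost it in 4.74%. The BLNK and inner BTK windows kept H3K4me3 over all 300 bp in all 4 libraries.

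Other genes of the pathway were read in the same way, 38 of 39 listed genes being in the gene table. In H3K4me3, CR2, the complement receptor CD21, was the 1 of 36 that lost the mark, beside 4.79% of all genes. It had no peak in CARM1i cells and 3287 and 1801 bp in DMSO cells. The length was lower in both CARM1i libraries at 31 of 36, beside 82.8% of all genes covered in any library. In H3K4me3 limma called 6 of 33 lower, beside the 17.4% of all genes, and 0 higher, beside 0.0795%. The called genes were the tetraspanin CD81, the inhibitory receptor CD72, the lipid kinase subunit PIK3CD, the exchange factor VAV1, the kinase PRKCB and the transcription factor NFATC1. PIK3CD covered 2753 and 2233 bp in CARM1i cells, against 8476 and 7028 bp in DMSO cells, a log2 ratio of -1.64 ± 0.15 (limma adjusted p = 0.00358) and of -1.30 ± 0.09 after centring (adjusted p = 0.00613). CD81 covered 4943 and 4987 bp against 10415 and 8128 bp, with ratios of -0.89 ± 0.14 (adjusted p = 0.013) and -0.55 ± 0.10 (adjusted p = 0.048) on these scales. No other pathway gene was called lower on both scales. PTPN6, the phosphatase recruited by CD22, covered 7447 and 6649 bp against 9471 and 8441 bp (limma adjusted p = 0.0832).

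In H3K27ac, STIM1, the calcium sensor of the endoplasmic reticulum, was the 1 of 19 pathway genes that lost the mark, beside 24.1% of genes. It had no peak in CARM1i cells and 4636 and 1465 bp in DMSO cells. The mark was in all 4 libraries at 16 of 38 genes, beside 9.44% of all genes, and limma called 0 of these 16. The longest covered was CD81, with 19292 and 19112 bp in CARM1i cells and 26952 and 19190 bp in DMSO cells. GAB1, an adaptor for the lipid kinases, had 13286 and 12320 bp against 26382 and 15917 bp. H3K4me1 was lost at 2 of 27 pathway genes, beside 39.8% of all genes. Among these 2 was CSK, the kinase that restrains the Src family. CSK had no peak in CARM1i cells and 18245 and 4014 bp in DMSO cells. In H3K4me1 limma called 15 of 18 lower, beside the 39.5% of all genes, and 2 of 18 after centring, beside 2.04%. PLCG2, the phospholipase downstream of BTK, covered 5170 and 852 bp in CARM1i cells, against 61451 and 32482 bp in DMSO cells. Its log2 ratio was -4.41 ± 0.57 (limma adjusted p = 1.58e-11), and -2.85 ± 0.62 after centring (limma adjusted p = 0.0477). Nearly all uncentred H3K4me1 calls over all genes went without CARM1i replicate 1, CARM1i replicate 2 or DMSO replicate 1. Counts of lost pathway genes rested on single libraries. Without DMSO replicate 2, 6 of 27 were lost in H3K27ac, beside 44.7% of all genes, and 11 of 36 in H3K4me1, beside 67.0%. Without CARM1i replicate 1, 3 of 19 were lost in H3K27ac, beside 37.9%. The counts were then 8 of 27 in H3K4me1, beside 51.9%, and 2 of 36 in H3K4me3, beside 7.82%. Without CARM1i replicate 2 the H3K4me3 count was 2 of 36 as well, beside 5.08%.

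**Figure D5:**
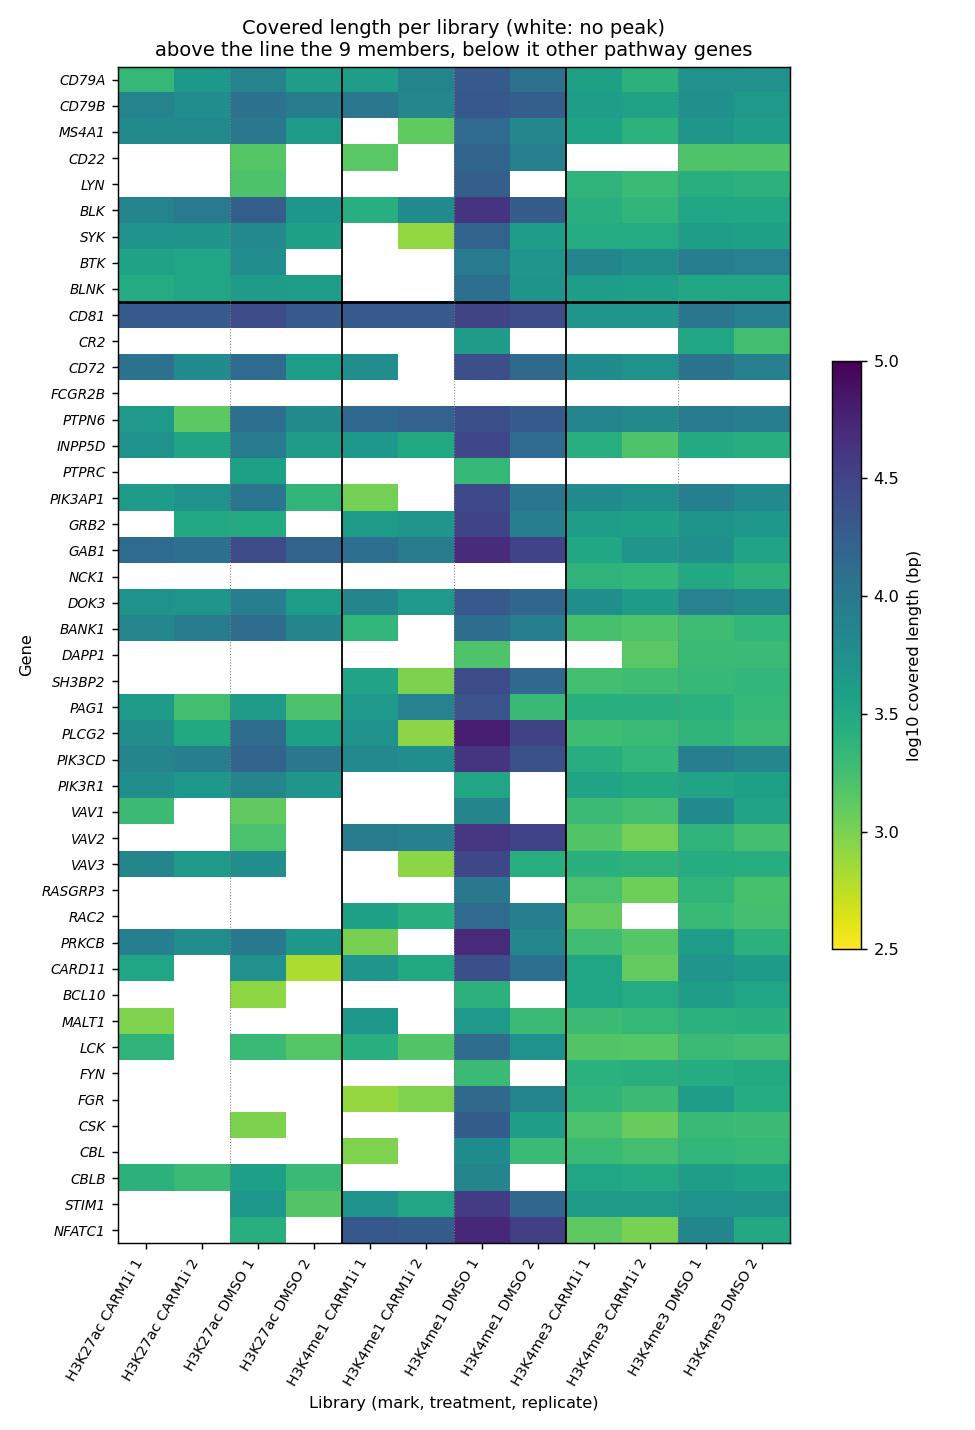
Covered length on a log10 scale (colour, bp; white, no peak) for the 9 members above the line and other pathway genes below it (rows), in each of the 12 libraries (columns). The H3K4me3 columns are filled for nearly every gene, the H3K4me1 columns are filled most in DMSO 1, and CD22 and CR2 are white in both CARM1i columns of H3K4me3.

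For each member the gene with the most similar covered lengths over the 12 libraries was found by Euclidean distance on log2 of length plus 500 bp, among genes whose windows do not overlap the member's. CD22 had the closest partner, CD37, a B-cell tetraspanin, at a distance of 0.35, while the median distance of all genes from CD22 was 7.51. CD37 had no H3K4me3 in CARM1i cells and 1698 and 1395 bp in DMSO cells, 1165 and 0 bp of H3K4me1 against 17687 and 9131 bp, and H3K27ac of 1632 bp in DMSO replicate 1 alone. SYK was closest to POU2AF1, the B-cell coactivator, at 0.93, and MS4A1 was closest to SYK at 1.23. The nearest gene was TRABD for CD79B (0.85), SIK3 for LYN (0.88), BST1 for BLNK (0.88), ARHGAP24 for BLK (1.38), CYBC1 for CD79A (1.39) and PAOX for BTK (1.71). BST1, though nearest to BLNK, had H3K4me3 of 3335 and 2897 bp in CARM1i cells and 4002 and 3256 bp in DMSO cells, so it did not share the longer H3K4me3 of BLNK in CARM1i cells.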

How the data were processed

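Histone marks were profiled by ChIP-seq in Toledo cells. The submitters' processing notes name hg38, Bowtie 1.1.2 and MACS 1.4.2. Settings not given in the sources used here include the peak threshold, read filters and the role of the inputs. The authors deposited 1 list per library with 3 columns (chromosome, start, end), so the deposited values are coordinates of peaks called per library, with no score, count or depth.

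The 9 members and all gene lists were chosen with earlier results of these data known. Windows were RefSeq genes of GRCh38.p14 and 10 kb either side; the table used gives no exons, and strand was known for 5 members. Peaks were assigned by an overlap of 1 bp and covered bp were summed. Calls of lost, gained, lower and higher follow the report. limma 3.58.1 in R 4.3.3 was fitted with a trend over genes covered in all 4 libraries. Scripts ran in Python 3.11.15 and were tested on simulated data. Named genes were all members, pathway genes lost or gained, up to 3 kept examples per mark, and each member's nearest gene; some of them are counted but not reported here by name. VAV1, PRKCB and PAG1, outside this rule, were named after their values were seen. The labels do not say whether replicates were separate cultures; p-values therefore reflect spread between these libraries, possibly a technical one. Alternatives changed the window, the overlap, the peak width, the list length, the scaling and the libraries.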

Additional observations from a re-analysis of the deposited data

Results flagged for a closer look

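BLNK stood out because its marks moved in opposite directions between the CARM1i and DMSO libraries. Both CARM1i libraries lay above both DMSO libraries in H3K4me3, with a difference in covered length of 687 bp (CARM1i minus DMSO). In the other marks both CARM1i libraries lay below both DMSO libraries, with differences of -962.5 bp in H3K27ac and -8599.5 bp in H3K4me1. The difference between marks was not tested, and it depends on the window for H3K27ac and for H3K4me3. Within 2 kb of the 5′ end the H3K4me3 difference was -28 bp, and the H3K27ac difference was 176 bp.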

How the results depend on the processing

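Of the counts over members and pathway genes, 117 values under an alternative stayed within 1.5 times the reported count and 45 moved; of the differences at single members, 255 stayed within the replicate spread and 64 moved, and 5, of groups that do not overlap, reversed. Among the values of overlapping groups 10 more changed sign, all in H3K27ac: CD79A to 53.5 bp near the 5′ end and with peaks at no other gene, MS4A1, BLK and SYK to 2101.5, 3428.5 and 1380.5 bp without DMSO replicate 1, BTK to -2530.5 bp without DMSO replicate 2, and MS4A1, SYK and BTK to 243.5, 46.5 and -857.5 bp near the 5′ end, with SYK at 677 bp in equal lists. Where no cause is named, the cause was not tested. Depth is unknown and limits every absent peak.

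In H3K27ac, 1 of 9 members was lower, in place of 2 of 9, with the gene alone or with flanks of 2 kb or 25 kb. Within 2 kb of the 5′ end it was 1 of 8. Of the pathway genes, 2 of 17 were lost with the 2 kb flank and 2 of 12 near the 5′ end, in place of 1 of 19. For lost and lower counts under these windows, peak sets and lists, the share over all genes is not given. A changed count can therefore not be read as a change in the members. The H3K27ac difference at BLNK reversed to 188 bp (gene alone), 176 bp (flank of 2 kb and 5′ end) and 2739.5 bp (flank of 25 kb), and its H3K4me3 difference to -28 bp within 2 kb of the 5′ end. In H3K4me1, 4 of 8 members were lost, in place of 2 of 8, with the gene alone or with peaks at no other gene. Near the 5′ end 5 of 8 were lower, in place of 8 of 9. Pathway genes lost in H3K4me1 numbered 9 of 18 near the 5′ end, in place of 2 of 27. They numbered 4 of 27 with peaks of at least 1000 bp and 0 of 21 in lists of equal length. As reported, limma called 2 of 3 members in H3K4me1, beside 698 of 1766 genes lower. It called 1 of 2 with the gene alone, the 2 kb flank or peaks at no other gene. The genes called lower were then 140 of 1134, 374 of 1303 and 439 of 1074. With 25 kb it called 4 of 4 members, beside 964 of 2461 genes. Near the 5′ end it called 0 of 1, beside 0 of 411, and in equal lists 0 of 3, beside 168 of 1372. After centring it called 0 of 3, and with a pseudocount of 500 bp 6 of 8, beside 2455 of 5442 genes. In H3K4me3, equal lists gave 0 of 8 lost members in place of 1 of 9, and 5 of 9 lower in place of 8 of 9. Near the 5′ end 2 of 29 pathway genes were lost, in place of 1 of 36. limma called 2 of 8 members in H3K4me3 as reported, beside 1970 of 11314 genes lower. With the gene alone it called 0 of 7, beside 175 of 10080 genes lower. It called 0 of 8 with peaks of at least 1000 bp or in equal lists, beside 1544 of 11123 and 924 of 10880. With peaks at no other gene it called SYK, 1 of 7, beside 880 of 6524. After centring it called BLNK, 1 of 8, which was higher.

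Leaving out 1 library at a time gave 0 to 2 lost members in H3K27ac, beside 27.2% to 44.7% of genes. It gave 2 to 9 lower members, beside 29.3% to 81.9%, and 1 to 6 lost pathway genes. In H3K4me1 it gave 2 to 4 lost members, beside 40.2% to 67.0% of genes, and 8 to 9 lower, beside 44.0% to 98.7%. It gave 2 to 11 lost pathway genes, and the limma calls of members changed. In H3K4me3 it gave 1 to 2 lost pathway genes, the limma calls of members changed, and the lost and lower members stayed at 1 and 8. The group left with 1 library was assumed to vary like the other.

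The labels give replicate numbers and no more. In their deviations from the group means, same-numbered libraries correlated at 0.13, 0.01 and 0.05 in H3K27ac, H3K4me1 and H3K4me3. These correlations cannot decide whether same-numbered libraries were paired. In each mark and group replicate 1 covered more of the genome than replicate 2. In H3K4me3 these lengths were 20.9 and 18.9 Mb in CARM1i cells, and 28.5 and 25.2 Mb in DMSO cells. With the replicate block, limma called 7 of 8 members in H3K4me3 in place of 2. All of them were lower except BLNK, which was higher (log2 ratio 0.28, limma adjusted p = 0.0433). Over all genes it called 4463 lower and 15 higher in place of 1970 and 9. It called 956 genes lower in H3K4me1 in place of 698, and 0 in H3K27ac.

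After centring on the library median, limma called 600 genes lower and 59 higher in H3K4me3, 36 and 13 in H3K4me1, and 39 and 49 in H3K27ac.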

Other observations

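Longer H3K4me3 in both CARM1i libraries was found at 1 of 36 pathway genes, beside 0.563% of all genes covered in any library. It was PAG1, the membrane adaptor that recruits CSK. PAG1 covered 2618 and 2620 bp in CARM1i cells, against 2521 and 2183 bp in DMSO cells. Its log2 ratio was 0.16 ± 0.11 (SE, n = 2 each; limma adjusted p = 0.261), and after centring each library on its median length 0.50 ± 0.09 (adjusted p = 0.0392).

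Among the sites shared with neighbours, H3K4me3 over the 5′ end of BTK near RPL36A covered 2039 and 1791 bp in CARM1i cells, against 2841 and 2509 bp in DMSO cells. At the other end of BTK, near TIMM8A, it covered 2267 and 1557 bp against 2506 and 2325 bp. Both sites were in all 4 libraries, and their groups did not overlap.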
